A study of Mus musculus with 9 samples.

Results

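Cirbp and Rbm3, the genes of the best-known cold-inducible RNA-binding proteins, were followed in the livers of fed, intermittently fasted and fasting-mimicking diet mice. Both genes were taken by symbol from a table of TPM values (transcript abundance normalized for transcript length and library total), and they are 2 of the 5608 genes listed there. Cirbp is listed as NCBI gene 12696 and Rbm3 as NCBI gene 19652. Both were above the limit for testing, a mean TPM of at least 1, which 4665 genes passed. How the listed genes were chosen is not given in the sources used here. Shares of all genes below refer to these 4665.

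The 9 libraries came from livers of wild-type C57BL/6 J mice in the short-term experiment, 3 mice per group, each library from 1 mouse. FED mice had free access to the standard diet, IF mice had their food withheld for 24 h on 2 occasions with free refeeding between them, and FMD mice received the fasting-mimicking diet, a low-calorie prepared diet, for 3 days. Livers were taken on the day after the second fast and after the last day of the fasting-mimicking diet. Replicates are numbered 1, 2 and 3 for FED and for IF mice, while FMD mice have the numbers 1, 2 and 4. Ages and sexes are not given in the sources used here, and body temperature was not analysed here.

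Both proteins belong to the glycine-rich RNA-binding family: an RNA recognition motif at the amino end is followed by a tail rich in glycine and arginine. Their transcripts accumulate when mammalian cells are cooled by a few degrees, whereas classical heat shock chaperones answer to warming. Both proteins bind many mRNAs and influence their stability, polyadenylation site choice and translation, and in mouse liver both transcripts follow the daily rhythm of body temperature.

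The libraries were not alike as a whole. Listed TPM made up between 26.3% and 29.3% of the library total in FED, between 32.9% and 34.9% in IF and between 34.9% and 43.0% in FMD libraries, and the genes tested had a median log2 fold change of 0.24 in IF and 0.48 in FMD relative to FED, and of 0.24 in FMD relative to IF. Values are therefore also given as scaled TPM. Each library was divided by its own median ratio to a geometric mean library, which takes the median gene as unchanged between libraries. Whether it was unchanged was not tested. The factor was 0.815 to 0.843 in FED, 0.962 to 1.03 in IF, and 1.43, 1.14 and 1.09 in FMD replicates 1, 2 and 4. FMD replicate 1 stood apart in this factor and in Cd68, a macrophage marker, at 64.0 TPM, the highest of the 9 libraries; FED libraries had 6.35 to 10.4 TPM, IF libraries 3.14 to 5.99 TPM and the lowest FMD library 5.75 TPM. Of 12 hepatocyte markers 1 is listed, Ass1, an enzyme of the urea cycle, at 2335 to 5153 TPM over the 9 libraries. The 2 listed of 7 stellate cell markers, Dcn and Col1a1, did not move together. Dcn had means of 77.5, 141 and 150 TPM in FED, IF and FMD libraries. Col1a1 was low and did not rise, with means of 1.15, 0.94 and 0.91 TPM in the same order. Krt19, the 1 listed of 5 cholangiocyte markers, was at 0.76 to 4.07 TPM. No marker of endothelial cells, lymphocytes, neutrophils or red cells is listed, and the part of cell composition in the results was not tested. In whole tissue, fewer cells of a type and less RNA per cell cannot be told apart.

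The sequence before the first of 2 Cirbp start sites in RefSeq is shown because a short element of this kind, the octamer TCCCCGCC, is known from work on Cirbp as a mild-cold response element bound by Sp1, a factor that also binds GC boxes (GGGCGG). The 250 bases lie at chr10:80167589-80167838 of GRCm38.p6 on the plus strand, with the octamer and the GC boxes of either strand in capitals. The submitters' processing notes name mm39, so these coordinates are those of the sequence table.
Cirbp promoter: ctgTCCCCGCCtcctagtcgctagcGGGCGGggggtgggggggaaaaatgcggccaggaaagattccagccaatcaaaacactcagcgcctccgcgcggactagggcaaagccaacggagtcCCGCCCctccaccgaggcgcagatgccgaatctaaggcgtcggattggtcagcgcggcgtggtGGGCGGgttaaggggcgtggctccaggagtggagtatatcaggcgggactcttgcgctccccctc
The octamer stood between -247 and -240 from the start site, and 4.64% of the 32851 promoters in the table held it on either strand. Cirbp had 3 GC boxes in this window, beginning at -225, -128 and -65, where 32.7% of promoters held at least 1 and 8.47% at least 3. The window had a GC content of 65.6% against a median of 52.4% over all promoters. Letters of a heat shock element (TTCNNGAA or GAANNTTC, in 12.8% of promoters), an E box (CACGTG, 6.02%) and a cAMP response element (TGACGTCA, 1.55%, or its core TGACG, 17.8%) were not in this window. The same length before the second start site held 4 GC boxes and 1 cAMP core but not the octamer. Its GC content was 72.4%. Such matches describe the letters and do not show binding.

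Since the proteins are paralogs, their coding sequences were compared for stretches that reads could share. The Cirbp transcript compared, on chromosome 10, has 7 exons and 516 coding bases, and the Rbm3 transcript, on chromosome X, has 7 exons and 462 coding bases (GENCODE vM21, GRCm38). Aligned end to end, 330 of 450 paired bases were identical, or 73.3%, and the longest run of identical bases between the whole transcripts was 11. The most alike 60 bases were sought only in the longest stretch aligned without a gap, coding positions 1 to 252 of both genes. The rest of the alignment was not searched. These 60 bases, coding positions 87 to 146 of both genes, are part of the stretch for the RNA recognition motif. They are shown with the 13 bases that differ in capitals.
Cirbp coding: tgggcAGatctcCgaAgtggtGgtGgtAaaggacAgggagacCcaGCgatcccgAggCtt
Rbm3 coding: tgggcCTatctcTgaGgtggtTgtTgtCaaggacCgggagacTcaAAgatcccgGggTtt
No run of more than 11 bases was thus common to these 2 transcripts; other isoforms were not compared.

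Rbm3 was the more abundant transcript in all 9 livers. On TPM both genes were higher after either diet, while on scaled values the rise of Cirbp in FMD was lost. In FED livers, Cirbp was at 17.4, 11.9 and 16.7 TPM in replicates 1, 2 and 3. In IF livers, it was at 60.7, 60.5 and 35.7 TPM. In FMD livers, replicates 1, 2 and 4 had 22.8, 23.3 and 27.0 TPM. Every IF library was above every FMD library, and every FMD library was above every FED library. Group means were 15.3 ± 3.01 TPM in FED, 52.3 ± 14.4 TPM in IF and 24.3 ± 2.32 TPM in FMD (SD, n = 3). Among all listed genes, Cirbp exceeded 65.1% to 72.2% in FED libraries, 81.2% to 86.6% in IF libraries and 66.5% to 74.8% in FMD libraries.

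Rbm3 was at 40.9, 29.9 and 36.3 TPM in FED replicates 1, 2 and 3. The IF replicates had 134, 145 and 104 TPM. The FMD replicates 1, 2 and 4 had 180, 116 and 89.5 TPM. Both diet groups lay wholly above FED and overlapped each other, and the FMD libraries spread over 2.02-fold, against 1.40-fold in IF and 1.36-fold in FED. Group means were 35.7 ± 5.48 TPM in FED, 128 ± 21.3 TPM in IF and 129 ± 46.8 TPM in FMD (SD, n = 3). Rbm3 exceeded 81.1% to 84.5% of the listed genes in FED libraries and 89.7% to 92.9% in the 6 libraries of the diet groups.

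**Figure D1:**
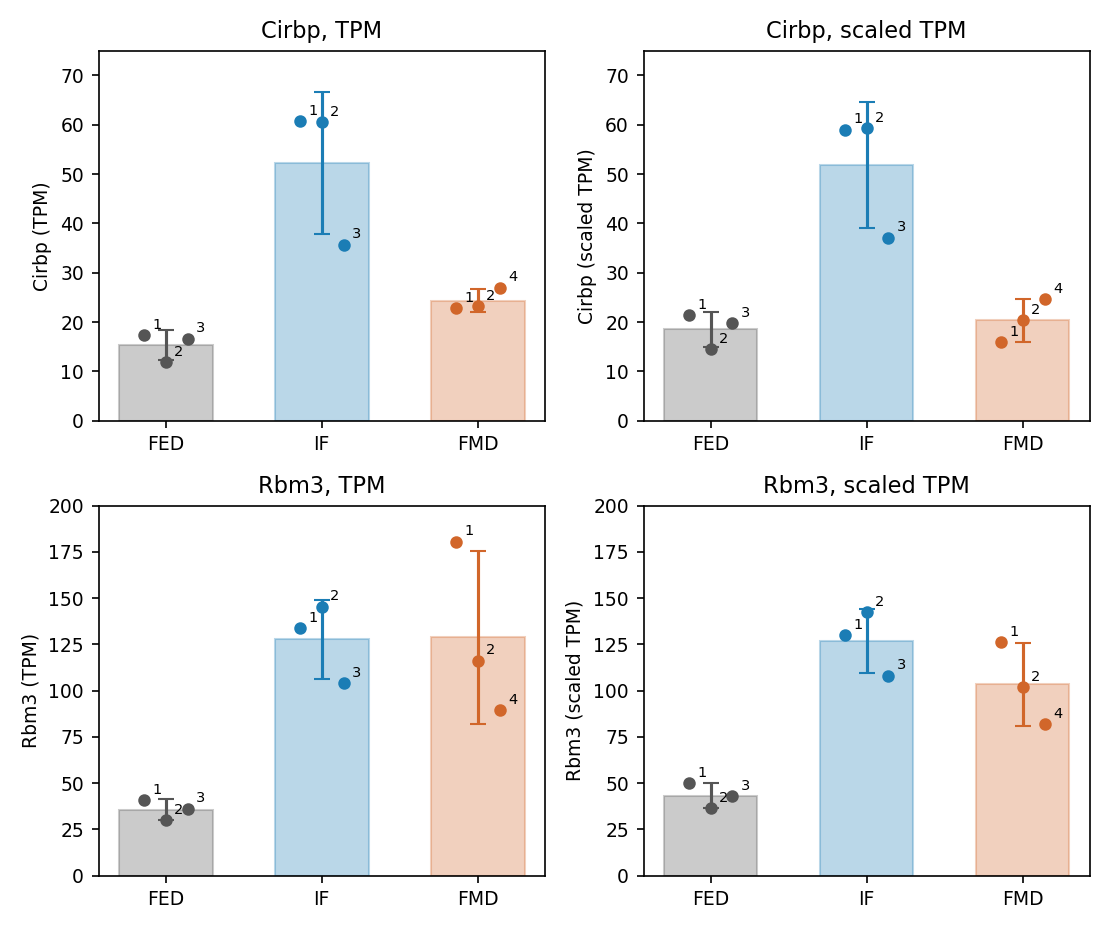
Cirbp (top) and Rbm3 (bottom) in TPM (left) and scaled TPM (right) in FED, IF and FMD livers. Bars are group means, error bars the SD of 3 libraries and points single libraries with their replicate number. Cirbp in IF (35.7 to 60.7 TPM) is above both other groups on either scale, whereas Cirbp in FMD and FED overlap once scaled.

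For the comparison of intermittent fasting with feeding, Cirbp rose by 1.69 on the log2(TPM + 1) scale (SE 0.21, 95% interval 1.22 to 2.15, limma adjusted p = 5.6e-04). Rbm3 rose by 1.81 (SE 0.23, interval 1.29 to 2.33, adjusted p = 7.1e-04). As ratios of mean TPM these were 3.42-fold for Cirbp and 3.58-fold for Rbm3. A gene was called where its adjusted p was below 0.05 and its log2 fold change exceeded 0.585 in size, and by this rule 10.3% of the 4665 genes were called higher and 1.59% lower in IF. In 53.8% of the genes every IF library was above every FED library, so the absence of overlap alone was common. By size of the log2 fold change, Rbm3 ranked 22 and Cirbp 27 from the highest of 4665 genes. On scaled values Cirbp rose by 1.42 (interval 0.94 to 1.91, adjusted p = 0.00318) and Rbm3 by 1.53 (interval 1.14 to 1.92, adjusted p = 8.4e-04), where 3.69% of genes were called higher and 3.45% lower.

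For the fasting-mimicking diet against feeding, Rbm3 rose by 1.77 (SE 0.23, interval 1.25 to 2.29, adjusted p = 3.2e-04), a ratio of means of 3.61-fold. Cirbp rose by 0.65 (SE 0.21, interval 0.18 to 1.11, adjusted p = 0.0200), or 1.59-fold, where the median gene was shifted by 0.48. By the same rule 35.5% of genes were called higher and 1.59% lower, and in 68.0% every FMD library was above every FED library. Rbm3 ranked 70 from the highest and Cirbp 1344. On scaled values, where 5.49% of genes were called higher and 5.64% lower, Rbm3 rose by 1.23 (interval 0.84 to 1.62, adjusted p = 0.00138). Cirbp was then no longer called, with a difference of 0.13 (interval -0.36 to 0.61, adjusted p = 0.729), and its scaled values of 15.9, 20.4 and 24.7 in FMD replicates 1, 2 and 4 overlapped those of 21.4, 14.5 and 19.7 in FED replicates 1, 2 and 3. The Cirbp call was also lost without FED replicate 2 (0.49, adjusted p = 0.083) and without FMD replicate 4 (0.58, under the fold limit). Without FMD replicate 1, the library that stood apart, the TPM difference was 0.69 for Cirbp (adjusted p = 0.0257) and Rbm3 kept its call (adjusted p = 2.1e-04).

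Between the diets, Cirbp was lower in FMD (log2 fold change -1.04, interval -1.50 to -0.57, limma adjusted p = 0.0257), with a mean 2.15-fold higher in IF. In this comparison 4.67% of genes were called higher and 0.472% lower in FMD, and in 3.04% every FMD library was below every IF library. Cirbp ranked 7 from the lowest of 4665 genes. On scaled values, where 1.11% of genes were called in each direction, the difference was -1.30 (interval -1.78 to -0.81, adjusted p = 0.0206). The call was lost without IF replicate 1 (-0.91, adjusted p = 0.098) and without IF replicate 2 (-0.91, adjusted p = 0.110), and the direction stayed. Rbm3 was not called between the diets, at -0.04 (interval -0.55 to 0.48, adjusted p = 0.915) and, scaled, at -0.31 (interval -0.70 to 0.08, adjusted p = 0.315). The intervals allow a difference of Rbm3 of up to 0.55 in favour of IF on TPM and up to 0.70 on scaled values.

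**Figure D2:**
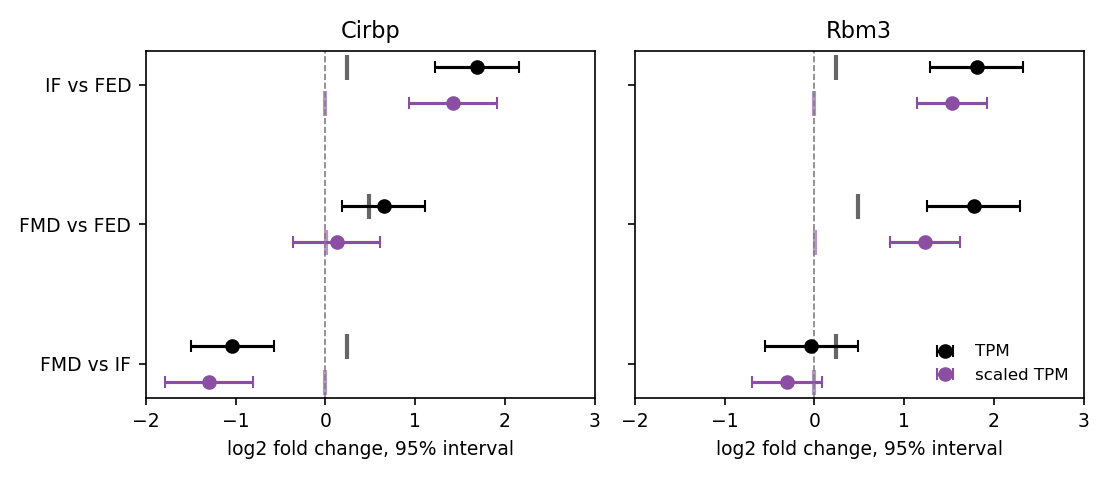
Log2 fold changes of Cirbp (left) and Rbm3 (right) for each comparison, from TPM (black) and scaled TPM (purple), with 95% intervals; short vertical marks are the median over all 4665 genes. For FMD vs FED the Cirbp value moves from 0.65 to 0.13 with scaling, and the Rbm3 value from 1.77 to 1.23.

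The order of mean levels was IF, FMD and FED for Cirbp, and FMD and FED did not overlap on TPM but overlapped on scaled values. For Rbm3, IF and FMD did not differ beyond their spread, and both were above FED. By an exact permutation test over all 1680 arrangements of the 9 libraries into groups, the spread of the group means on log2(TPM + 1) gave p = 0.00357 for Cirbp, the smallest p this design allows, and p = 0.0357 for Rbm3. On scaled values these exact permutation p-values were 0.0214 and 0.00714.

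The share of Cirbp against Rbm3 within a library does not depend on how the library is scaled. Cirbp stood at 42.6%, 39.6% and 45.9% of the Rbm3 TPM in FED replicates 1, 2 and 3. In the IF replicates it was 45.4%, 41.6% and 34.3%. In FMD replicates 1, 2 and 4 it was 12.6%, 20.0% and 30.2%. All FMD libraries were below all others, whereas FED and IF overlapped. Means were 42.7% ± 3.13 in FED, 40.4% ± 5.62 in IF and 20.9% ± 8.82 in FMD (SD, n = 3).

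As a log2 difference, Cirbp minus Rbm3, IF minus FED was -0.12 (two-sided exact permutation p = 0.5). FMD differed from FED by -1.12 and from IF by -1.001 (two-sided exact permutation p = 0.1 for each, the smallest that 3 against 3 allows). Over the 3 groups together, the exact permutation test gave p = 0.0179. In all, 5 values were tested over the 3 groups (each member on both scales, and this difference), and these p-values are not adjusted for that number. Without FMD replicate 1 the difference was -0.81 from FED and -0.68 from IF.

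Within FMD the genes ran in opposite order: replicate 1 had the highest Rbm3 and the lowest Cirbp, and replicate 4 had the lowest Rbm3 and the highest Cirbp. IF replicate 3 was the lowest of its group in both genes, and FED replicate 2 was the lowest of its group in both. With 3 libraries in a group, these orders are given as a description.

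**Figure D3:**
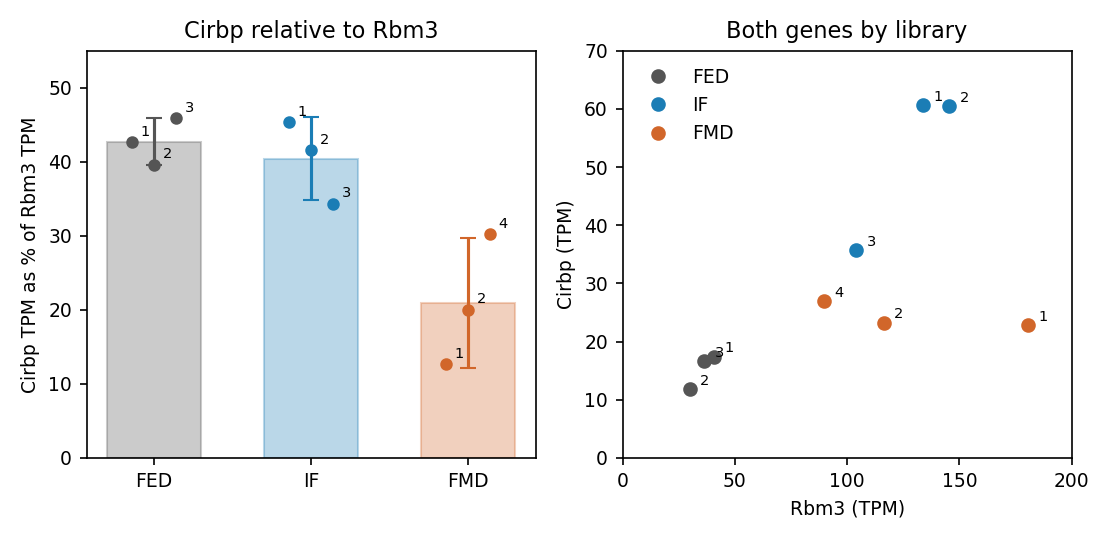
Left, Cirbp TPM as a percentage of Rbm3 TPM in each library, with bars for group means and error bars for the SD of 3 libraries. Right, Cirbp against Rbm3 in TPM for the 9 libraries, labelled by replicate number. FED and IF libraries have 34.3% to 45.9% and FMD libraries 12.6% to 30.2%.

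Genes whose pattern over the 9 libraries was most like that of each member were ranked by Pearson r on log2(TPM + 1) among the other 4664 genes. The 9 libraries share their groups and the shift of the listed genes, so r is given as a description. The closest to Cirbp were Parp9 (r = 0.96), Zfp395 (0.95), Stard7 (0.95), Sdc1 (0.95) and Ahr (0.95). Sdc1, the heparan sulfate proteoglycan syndecan-1 of hepatocytes, was at 106, 214 and 133 TPM in FED, IF and FMD means, and Ahr, the aryl hydrocarbon receptor, at 6.95, 12.1 and 7.53 TPM. The most opposed were H4c8, a histone H4 gene (r = -0.95), Ptgr1 (-0.93), F2r, a thrombin receptor (-0.89), Wfdc17 (-0.87) and Nrp1 (-0.86). On scaled values the closest were Pgm1, Zfand2b, Zfp395, Zbtb22 and Pgrmc2 (r from 0.93 to 0.95), and the most opposed were Nup35, Adam17, Dusp6, Hspa13 and Ccndbp1 (r from -0.98 to -0.92). Zfp395, a zinc finger protein gene, was the one name among the closest 5 on both scales, with means of 7.87, 17.8 and 12.1 TPM.

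The closest to Rbm3 were Pacsin3 (r = 0.995), Baiap2 (0.990), Sin3b, a transcriptional corepressor (0.988), Hnrnpd (0.982) and Fem1a (0.980). Among the most opposed were Lifr, the leukemia inhibitory factor receptor (r = -0.96), Egfr, the epidermal growth factor receptor (-0.95), Ulk2 (-0.95) and Gbp10 (-0.93). Scaled, the closest were Grpel1, Nucks1, Cyth3, Slc2a1 and Hnrnpd (r from 0.96 to 0.98), and among the most opposed were Nrp1, H4c8, Fndc3a and Phospho2 (r from -0.97 to -0.95). Hnrnpd, which encodes the AU-rich element binding protein AUF1, was among the closest genes on both scales. The r between Cirbp and Rbm3 was 0.75 on TPM and 0.65 on scaled values. On TPM, Rbm3 ranked 226 from the closest to Cirbp, and Cirbp ranked 1957 from the closest to Rbm3. On scaled values these ranks were 418 and 606.

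Other temperature-linked and RNA-binding genes were read beside the members from lists written from general knowledge. Of 25 heat shock chaperone genes 7 were listed and tested. In IF vs FED 0 of 7 were called by limma, where 10.3% of all genes were called higher. An unadjusted p under 0.05 was reached by 3, all higher. The share of all genes at such a p is not reported here, so these counts and those below have no background. In FMD vs FED 5 of 7 rose, Dnaja1, Hsp90ab1, Hspa8, Chordc1 and Hspd1, where 35.5% of all genes were called higher, with a list median of 0.93 against 0.48 for all genes. In FMD vs IF 4 of 7 rose, where 4.67% of all genes did. Hspa8, the constitutive Hsp70, had means of 593, 880 and 1826 TPM in FED, IF and FMD. After scaling, Hspa8 (1.02) and Hsp90ab1 (0.60) were called in FMD vs FED, where 5.49% of all genes were called higher, Chordc1, a cochaperone of Hsp90, was lower in IF (-0.64) and higher in FMD vs IF (1.17), and the other chaperones were not called. Without FMD replicate 1, 5 of 7 were called in FMD vs FED on TPM and 3 in FMD vs IF. Among all 4665 genes, 1166 and 159 were called in either direction in that setting. On scaled values without this library the counts were 2 and 1 of 7, where 516 and 86 of all genes were called.

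Splicing factors of the SR family and the CLK kinases, whose activity is known to follow body temperature, held 12 tested genes of 21. In IF vs FED 1 of 12 rose, Srsf5, where 10.3% of all genes were called higher. Its rise was 1.09 (SE 0.15, limma adjusted p = 0.00113, scaled 0.81). Its means were 98.1 ± 8.65, 212 ± 35.4 and 154 ± 23.9 TPM in FED, IF and FMD (SD, n = 3), with all FMD libraries below all IF libraries, and its FMD vs IF difference of -0.46 was called on scaled values (-0.73, adjusted p = 0.0455). In FMD vs FED 9 of 12 rose, Srsf11, Tra2a, Clk4, Srsf2, Srsf7, Son, Srsf3, Srsf10 and Srsf5, where 35.5% of all genes did, with a list median of 0.63 against 0.48. On TPM the count was 4 without FMD replicate 1, where the calls over all genes in either direction fell from 1732 to 1166. On scaled values the count was 1, Tra2a, where 5.49% of all genes were called higher. That scaled call was lost without FMD replicate 1. Tra2a, a splicing activator related to the SR proteins, was at 10.3, 7.62 and 26.8 TPM and rose by 1.68 in FMD vs IF (adjusted p = 0.00532; scaled 1.42), where Srsf7 also rose. Tra2a was also called lower in IF vs FED on scaled values, at -0.67 (adjusted p = 0.0460).

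Of 41 other RBM genes, which share the RNA recognition motif with the members, 15 were tested. In IF vs FED 0 of 15 were called by limma, where 10.3% of all genes were called higher. An unadjusted p under 0.05 was reached by 3, all higher. The list median was 0.10 against 0.24 for all genes. In FMD vs FED 5 of 15 rose, Rbpms (1.09), Rbm17 (0.86), Rbm10 (0.68), Rbm7 (0.65) and Rbm25 (0.65), a share no higher than the 35.5% of all genes, with a list median of 0.54 against 0.48. In FMD vs IF Rbm10 (0.72) and Rbpms (0.77) rose, 2 of 15, where 4.67% of all genes did. On scaled values 0 of 15 were called by limma in any of the 3 comparisons, where 3.69%, 5.49% and 1.11% of all genes were called higher. In IF vs FED 6 genes had an unadjusted p under 0.05 (1 higher, 5 lower). It was 5 in FMD vs FED (2 higher, 3 lower) and 4 in FMD vs IF, all higher.

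Of 21 hnRNP genes, whose proteins package nascent transcripts, 11 were tested. Hnrnpd (0.84) and its paralog Hnrnpdl (0.73) rose in IF vs FED, 2 of 11 where 10.3% of all genes did, and Hnrnpd (scaled 0.60) was also called on scaled values. In FMD vs FED 6 of 11 rose, Hnrnpd (0.89), Hnrnpa1 (1.32), Hnrnpdl (1.01), Hnrnpu (0.78), Hnrnpab (0.64) and Hnrnph3 (0.60), with a list median of 0.60 against 0.48, and 35.5% of all genes were called higher. On scaled values 1 of 11 was called, Hnrnpa1 (0.77), where 5.49% of all genes were called higher. This scaled call of Hnrnpa1 was lost without FMD replicate 1. Hnrnph3 (0.74) rose in FMD vs IF on TPM but was not called on scaled values (0.49, limma adjusted p = 0.180) or under 22 of 29 alternatives in all. Hnrnpd, the gene near Rbm3 in pattern above, had means of 4.66, 9.12 and 9.62 TPM in FED, IF and FMD.

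Genes of the cold shock domain family, which despite the name are a different protein fold, had 3 tested of 8, Ybx1 and Carhsp1 among them. In IF vs FED 0 of 3 were called by limma, where 10.3% of all genes were called higher. A rise at an unadjusted p under 0.05 was seen in 1. In FMD vs FED 1 of 3 was called higher on TPM, where 35.5% of all genes were. That call was lost on scaled values. Of 14 genes known as regulators or targets of Cirbp or Rbm3, 5 were tested. In IF vs FED 0 of 5 were called by limma, where 10.3% of all genes were called higher. A rise at an unadjusted p under 0.05 was seen in 2. Prmt1, a methyltransferase that modifies arginines of Cirbp, rose by 0.66 in FMD vs FED, and Atr, a DNA damage kinase whose mRNA Cirbp binds, by 0.65, which made 2 of 5 where 35.5% of all genes were called higher. Both were lost on scaled values (0.13 and 0.29) and without FMD replicate 1. Txn1, the thioredoxin whose mRNA Cirbp binds, rose by 0.59 in FMD vs IF on TPM (limma adjusted p = 0.0487; scaled 0.32, not called). That made 1 of 5 where 4.67% of all genes were called higher. The Txn1 call was lost under 23 of 29 alternatives, also without FMD replicate 1.

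In the clock list, 10 of 23 genes were tested. Per1, a repressor of the clock that also answers glucocorticoids, rose by 2.08 in IF and by 2.62 in FMD vs FED, and its scaled values were 1.90 and 2.18. On TPM, Cry2 and Dbp rose in both comparisons, and Per2 and Csnk1d rose in FMD. So 3 of 10 rose in IF and 5 of 10 in FMD, where 10.3% and 35.5% of all genes did. On scaled values 1 of 10 rose in IF, Per1, and 2 of 10 in FMD, Per1 and Per2. There 3.69% and 5.49% of all genes were called higher, and Cry2, Dbp and Csnk1d were not called. Nr1d1, a repressor of the clock, was lower in FMD vs FED (-0.80; scaled -1.34; not called without FMD replicate 1 on TPM). In FMD vs IF, Per2 and Bhlhe40 rose on TPM, 2 of 10 where 4.67% of all genes did. On scaled values 0 of 10 genes were called by limma, where 1.11% of all genes were called in each direction. An unadjusted p under 0.05 was reached by 3 (2 higher, 1 lower). Bhlhe40, a repressor of the clock, was lower in IF vs FED on scaled values (-0.87).

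As a reference for the diets themselves, 8 of 21 fasting response genes were tested, such as Cpt1a, the carnitine palmitoyltransferase of fatty acid import into mitochondria. List medians were 1.25 for IF and 1.87 for FMD on the log2 scale. All 8 rose after either diet, where 10.3% of all genes did in IF and 35.5% in FMD. They included Cpt1a (1.61 and 2.08), Cpt2 (1.13 and 1.23), Hadha (1.15 and 1.48), Acot2 (2.95 and 4.76), Acadl (1.34 and 1.86), Plin4 (2.60 and 2.40) and Angptl4 (1.11 and 1.87). On scaled values 7 of 8 rose in IF and in FMD vs FED, where 3.69% and 5.49% of all genes did. In FMD vs IF, Acot2 (1.81) and Angptl4 (0.76) rose on TPM. On scaled values Acot2 (1.54) was called and Angptl4 was not (0.48, limma adjusted p = 0.166), and the Angptl4 call was lost under 17 of 29 alternatives and that of Acot2 under 8. The IF change of Cirbp (1.69) and of Rbm3 (1.81) thus lay within the range of these named genes, as did that of Rbm3 in FMD (1.77), and the FMD change of Cirbp (0.65) lay below it. The 2 comparisons share the FED libraries.

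**Figure D4:**
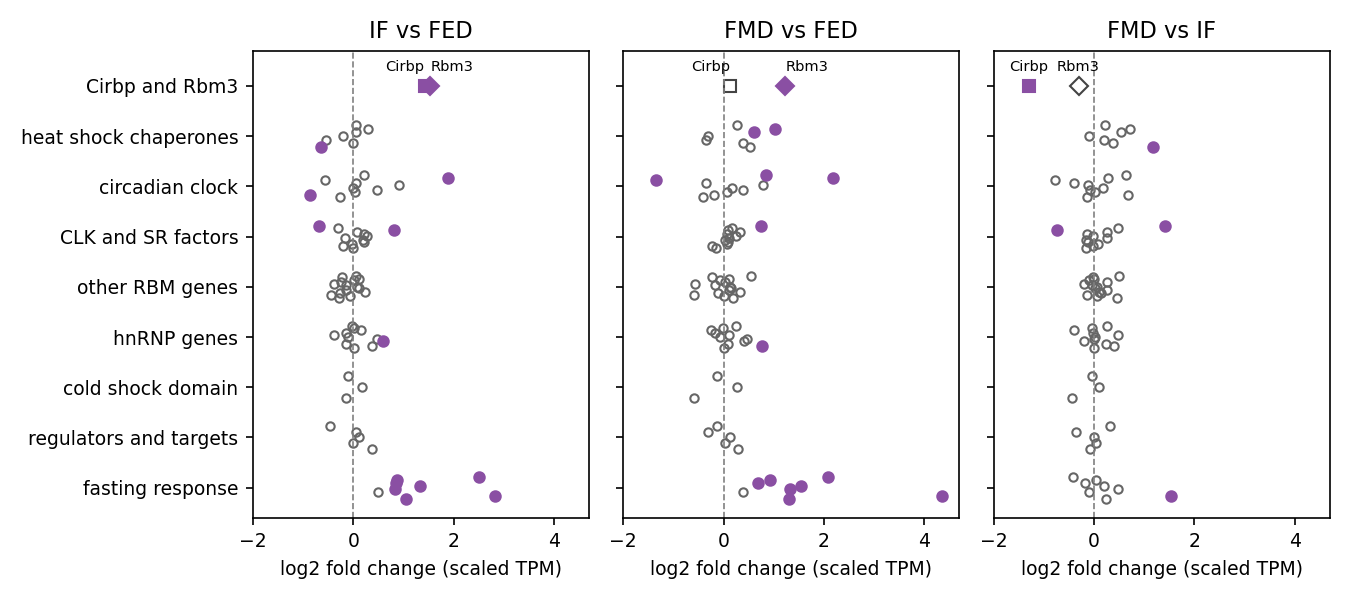
Log2 fold changes on scaled TPM of Cirbp (square) and Rbm3 (diamond) and of each tested gene of the lists (circles), for the 3 comparisons; filled symbols were called. In IF vs FED both members (1.42 and 1.53) are filled, and in FMD vs IF Cirbp (-1.30) is the lowest symbol drawn.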

How the data were processed

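Liver RNA of 3 FED, 3 IF and 3 FMD mice was sequenced by the authors as oligo-dT enriched, strand-specific libraries on DNBSEQ. The authors deposited TPM values with 2 decimals, 1 column per library; the submitters' processing notes name mm39 and DESeq2, and the quantifier is not given in the sources used here. No read counts were used, so the depth and counting error of each library are unknown. Samples were grouped by title.

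TPM was converted to log2(TPM + 1) and fitted with limma 3.58.1 in R 4.3.3 (lmFit, eBayes with a trend, 1 fit of 9 libraries, the 4665 genes whose mean TPM reached 1, Benjamini-Hochberg adjustment); calls needed an adjusted p below 0.05 and a log2 fold change above 0.585 in size. Fold changes on this scale understate those of low genes. Within-library differences and the 3 groups together were tested by exact permutation. On simulated IF vs FED data, 98.65% of 200 genes with a change of 4-fold were recovered and 2.81% of calls were false (4665 genes, 10 simulations). These simulations had no shift of the median gene and no smaller changes, so their shares do not carry over to the calls above. Promoters came from RefSeq (GRCm38.p6) and transcripts from GENCODE vM21, aligned with biopython 1.88; figures used matplotlib 3.10.9. Proteins and an Rbm3 promoter were not used here.

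The members and lists were chosen with earlier results of these data known, and the octamer searched was added later. Text names the members, the called list genes up to 8 per list and comparison, and the 5 closest and 5 most opposed genes per member, apart from a few genes that are not reported here. Alternatives covered pseudocount, filter, scaling, quantile normalization, fit per pair, trend, replicate block, fold limit and each library left out.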

Additional observations from a re-analysis of the deposited data

How the results depend on the processing

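Cirbp in IF vs FED (1.26 to 1.93), Rbm3 in IF vs FED (1.42 to 1.95), Rbm3 in FMD vs FED (1.07 to 2.002) and Rbm3 in FMD vs IF (-0.46 to 0.19, never called) kept their side of the threshold under all 29 alternatives. The within-library differences between Cirbp and Rbm3 kept their sign. Cirbp in FMD vs FED did not hold: it was 0.54 with a pseudocount of 5, 0.13 scaled and 0.10 after quantile normalization. Leaving out 1 library gave 0.49 to 0.75 on TPM and -0.035 to 0.28 on scaled values, the negative ones without FED replicate 2 (-0.035) or FMD replicate 4 (-0.022). Cirbp in FMD vs IF missed the threshold with 1 fit per pair of groups (-1.04, adjusted p = 0.0817), and with a library left out it ranged from -1.29 to -0.91 on TPM and from -1.51 to -1.14 on scaled values, where the calls without IF replicate 1 or 2 were lost on both scales.

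Numbers shared between groups were not taken as pairs, since no label ties them to a litter, batch or day. Correlations of deviations from the group mean were positive in all 7 same-number pairs of libraries (0.0035 to 0.177, 4 of 7 over 0.1). In the 20 pairs of different numbers they were -0.202 to 0.211, with 3 over 0.1. Of 8 libraries, 5 were closest to one of their own number. Whether the numbers mark real pairs cannot be told from the labels. With a replicate block Cirbp in FMD vs FED was 0.48 (adjusted p = 0.0953), and scaled with the block -0.10; no other call of the members changed. With the block and scaling, Srsf2 and Srsf5 in FMD vs FED were -0.034 and -0.093. With scaling and a library left out together, some FMD vs FED values turned slightly negative: over both scales the values with a library left out ranged from -0.017 to 0.78 for Hnrnpab, from -0.044 to 0.69 for Hnrnph3, from -0.030 to 0.81 for Prmt1, from -0.0084 to 0.70 for Son, from -0.0013 to 0.72 for Srsf2 and from -0.099 to 0.75 for Srsf5. In each of these the cause was not tested.

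Genes called in IF vs FED numbered 553, but 333 scaled, 316 with a pseudocount of 5, 326 after quantile normalization, 1112 with no fold limit, from 415 to 608 with a library left out and from 215 to 389 with a library left out and scaling. In FMD vs FED they numbered 1732, 519 scaled (626 with the block), 938 with a pseudocount of 5, 514 after quantile normalization, 3135 with no fold limit, from 1166 to 2173 with a library left out (the lowest without FMD replicate 1) and from 407 to 650 with scaling as well. In FMD vs IF they numbered 240, 104 scaled, 113 with a pseudocount of 5, 120 without the filter, 98 after quantile normalization, 24 with a fit per pair and 772 with the replicate block, from 18 (without IF replicate 2) to 820 (without FMD replicate 4) with a library left out, and from 16 to 345 with scaling as well. Depth is unknown, so precision rests on the spread between 3 mice per group.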
